A study of Mus musculus with 12 samples.

Results

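The open chromatin of 10 integrin genes (Itga4, Itga6, Itga9, Itgal, Itgam, Itgav, Itgb1, Itgb2, Itgb5 and Itgb7) was compared between graft-derived and host brain macrophages of bone marrow (BM) chimeric mice by ATAC-seq, in which a transposase cuts and tags accessible DNA. Every peak whose deposited gene annotation was 1 of these 10 genes was taken, which gave 86 of 60288 peaks in untreated mice and 83 of 54953 peaks in mice given lipopolysaccharide (LPS), the endotoxin of Gram-negative bacteria. The annotation names the gene with the nearest start site, so a peak need not act on the gene it is listed under.

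The recipients were WT C57BL/6J mice that were irradiated with 950 cGy and given donor BM. The donors were congenic WT mice with the CD45.1 allele, and the labels give WT as the genotype of every library. Brain cells were taken 9 months after the transfer, while the labels name 3.5 or 9 months for the whole series. CD45.1 marks the graft and CD45.2 the host, and both populations were sorted from the brain of each animal, as cells that stained for CD11b, the product of Itgam, and not for Ly6C or Ly6G. There were 4 groups of 3 libraries, graft and host cells of untreated mice 4, 5 and 6, and graft and host cells of mice 1, 2 and 3, which had received 2.5 mg/kg LPS 12 h before death. The peaks of the 2 treatments were called, merged and counted separately, so that a treatment and its table cannot be told apart. In sorted populations, fewer cells with an open site and less signal per cell cannot be told apart either.

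Integrins are cell surface receptors made of an alpha and a beta subunit, which bind the extracellular matrix or counter-receptors on other cells and pass signals in both directions across the membrane. On leukocytes, Itgal pairs with Itgb2 to form LFA-1 and Itgam pairs with Itgb2 to form Mac-1 (complement receptor), while Itga4 pairs with Itgb1 to form VLA-4 or with Itgb7 to form the gut homing receptor LPAM-1. VLA-4 and LFA-1 carry blood leukocytes across vessel walls, Itgav with Itgb5 binds vitronectin, Itga6 forms laminin receptors, and Itga9 pairs with Itgb1. Microglia, the resident macrophages of the brain, enter it in the embryo, whereas blood-borne cells use VLA-4 to enter the inflamed brain.

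In untreated mice 5 integrin peaks were called, that is, differed more than 4-fold at an adjusted p below 0.01, and the 200 bases of the reference genome around the centre of each are shown because these peaks carry the sharpest differences (mm9, plus strand, lower case, from the reference sequence). Capitals mark a match to C/EBP (TTGCNNAA) or IRF (GAAANNGAA). PU.1 (GGAAGT), AP-1 (TGANTCA), RUNX (TGTGGT) and an E-box (CACGTG) were searched as well, each on both strands, and had no match in these 5 windows.
Itga4, 1733 bp downstream of the start site, in an intron, higher in CD45.1 (chr2:79097217-79097416): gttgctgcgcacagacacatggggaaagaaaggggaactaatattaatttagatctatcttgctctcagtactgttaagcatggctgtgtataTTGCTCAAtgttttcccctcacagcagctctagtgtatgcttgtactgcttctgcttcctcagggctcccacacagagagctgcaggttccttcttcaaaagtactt
Itga4, 66385 bp downstream, in an intron, higher in CD45.1 (chr2:79161869-79162068): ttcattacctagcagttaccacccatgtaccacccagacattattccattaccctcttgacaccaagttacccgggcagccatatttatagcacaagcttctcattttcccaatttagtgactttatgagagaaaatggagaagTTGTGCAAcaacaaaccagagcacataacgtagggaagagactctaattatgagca
Itga4, 147520 bp upstream, intergenic, higher in CD45.1 (chr2:78947964-78948163): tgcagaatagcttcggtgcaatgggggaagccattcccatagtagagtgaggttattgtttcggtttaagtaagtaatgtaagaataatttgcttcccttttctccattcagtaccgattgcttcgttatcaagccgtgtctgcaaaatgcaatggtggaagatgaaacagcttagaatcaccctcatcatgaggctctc
Itga9, 49534 bp upstream, in an exon of Golga4, higher in CD45.2 (chr9:118466194-118466393): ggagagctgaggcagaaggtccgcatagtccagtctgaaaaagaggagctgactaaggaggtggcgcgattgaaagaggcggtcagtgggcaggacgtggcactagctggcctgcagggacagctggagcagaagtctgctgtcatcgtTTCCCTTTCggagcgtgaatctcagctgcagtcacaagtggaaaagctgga
Itga9, 36723 bp upstream of its second start site, in an intron, higher in CD45.2 (chr9:118583988-118584187): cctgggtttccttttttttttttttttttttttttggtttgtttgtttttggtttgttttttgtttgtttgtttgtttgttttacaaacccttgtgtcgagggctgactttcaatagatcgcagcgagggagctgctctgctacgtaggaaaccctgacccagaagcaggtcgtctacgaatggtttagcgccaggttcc

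The match to C/EBP occurred in 9.82% of the windows around all untreated peaks and in 8 of the 86 integrin windows, and the match to IRF in 8.34% and in 9. PU.1, the lineage factor of macrophages, matched 35.4% of all windows and 38 integrin windows, RUNX 15.8% and 21, AP-1 8.11% and 13, and the E-box 5.65% and 3. Each match describes the letters of a window and not a bound site. Cut into 4 equal pieces, each printed window had every piece occur once in the genome, also the Itga9 window that overlaps a repeat.

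The libraries held between 8392877.5 and 9107770 tags in untreated mice and between 2966364 and 6556594.5 after LPS, with median tags per peak of 16 to 35 and of 8 to 23.5, so that differences in weak peaks are less well determined after LPS. Of its 9107770 tags in all, the most of any library, the CD45.2 library of mouse 4 had 1680263.5 in peaks. The other CD45.2 untreated libraries had 3348848 and 3221628 in peaks. The CD45.2 library of mouse 1 had 779253 in peaks, the fewest of all 12. Counts were divided by size factors, and differences were tested with DESeq2 over all peaks of a table and adjusted over all of them. The sort was checked with Sall1, a transcription factor of microglia. Its summed peak signal was 9.35-fold lower in CD45.1 than in CD45.2 of untreated mice (SE of the log2 fold change 0.76, adjusted p = 3.23e-04). The untreated graft libraries were uneven, with a Sall1 mean of 111 and an SD of 82.7, while the host mean was 1042 (SD 65.4). After LPS Sall1 was 8.86-fold lower in CD45.1 (SE 0.25, adjusted p = 4.33e-34). The graft mean was then 30.9 (SD 11.3) and the host mean 265 (SD 32.0). Ptprc, which encodes CD45, had log2 fold changes of 0.08 and 0.02 (adjusted p = 0.767 and 0.976).

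Itga4 was the integrin gene with the clearest difference, and it was higher in graft-derived cells in both treatments. The normalised tags summed over its 12 peaks in untreated mice were 746, 797 and 718 in CD45.1 and 282, 257 and 344 in CD45.2. The groups did not overlap, and the signal was 2.55-fold higher in CD45.1 (log2 fold change 1.35, SE 0.12, adjusted p = 7.37e-27). Without the CD45.2 library of mouse 4, which had the fewest tags in peaks among the untreated libraries, the log2 fold change was 1.32. After LPS the sums over 15 peaks were 351, 417 and 442 in CD45.1 and 220, 157 and 199 in CD45.2. All 3 graft libraries again lay above all 3 host libraries, 2.11-fold on average (log2 fold change 1.08, SE 0.18, adjusted p = 7.29e-08), and without the shallow CD45.2 library of mouse 1 the log2 fold change was 1.17. Itgal, the alpha subunit of LFA-1, was the other gene above the threshold in untreated mice, and no integrin gene was higher in CD45.2. The share of all genes that passed was 7.35% higher in CD45.1 and 7.46% higher in CD45.2 in untreated mice, against 2 and 0 of the 10 integrin genes. After LPS these shares were 4.08% and 2.98%, against 1 integrin gene, Itga4, and 0.

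**Figure D1:**
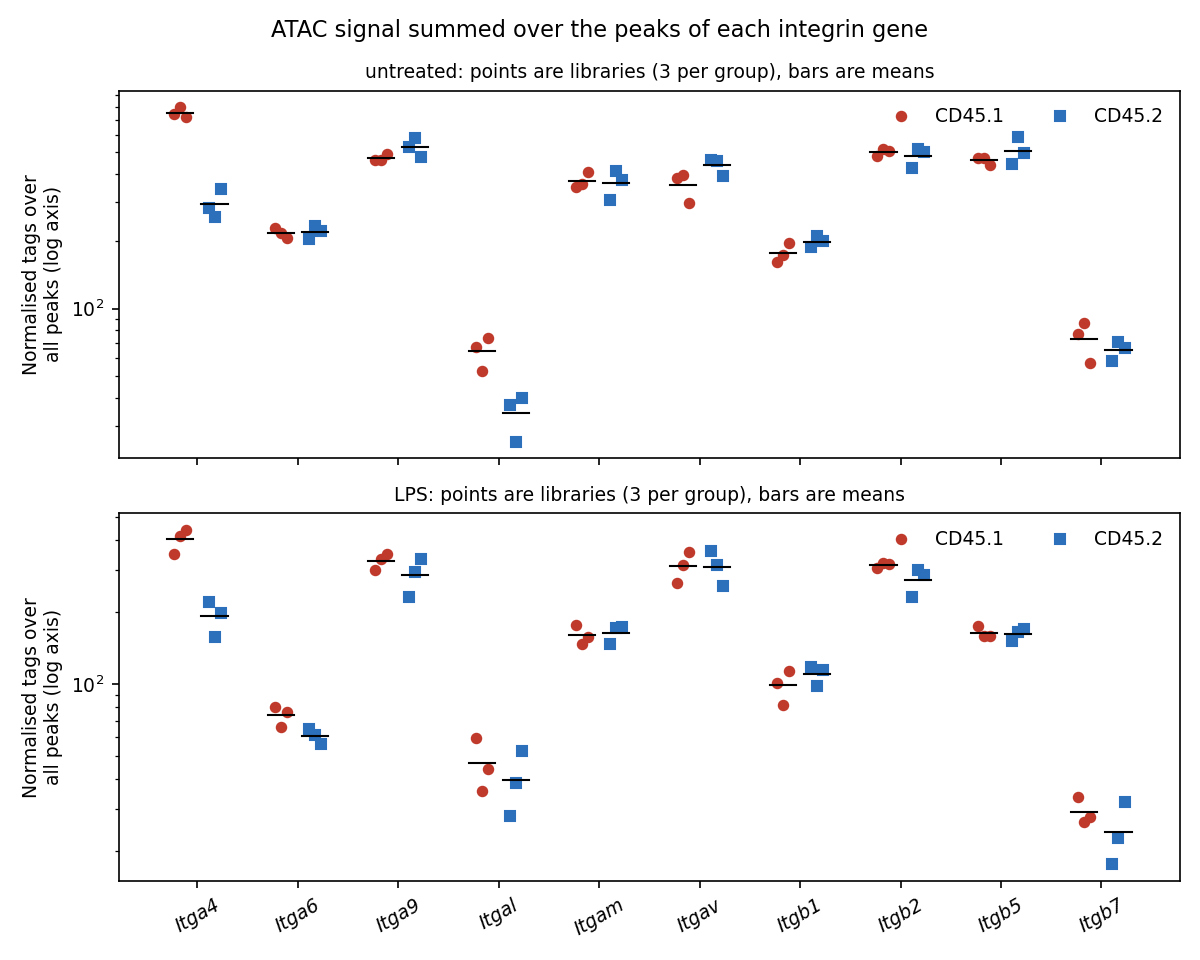
Normalised tags summed over all peaks of each integrin gene (log axis) in the 3 CD45.1 libraries (red circles) and the 3 CD45.2 libraries (blue squares), untreated above and LPS below, with bars at the group means. The red and blue points of Itga4 are apart in both panels and those of Itgal in the upper panel only, while the red and blue points of Itgb5, for instance, overlap in both.

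The filter on low counts was passed by 83 of the 86 integrin peaks in untreated mice and by 74 of the 83 after LPS, and a weak peak could pass through the population in which it was high. At the level of single peaks, 3 of the 83 integrin peaks tested in untreated mice were called higher in CD45.1, where 3.78% of all peaks were, and 2 were called higher in CD45.2, where 2.65% of all peaks were. With no limit on the fold, 13 integrin peaks passed an adjusted p of 0.05 in the direction of CD45.1 (8.54% of all peaks) and 5 in the direction of CD45.2 (6.32% of all peaks). The shares of integrin peaks that were called were thus close to those of all peaks in both directions, and so was the share at 0.05 in the direction of CD45.2. Of the 13 peaks higher in CD45.1, 10 belong to Itga4, and the other 3 lie at Itgal, Itgam and Itgb5. The libraries of the groups did not overlap for 19 integrin peaks higher in CD45.1 and 12 higher in CD45.2, where 17.7% of all peaks were so in each direction. The median log2 fold change of the integrin peaks was 0.06, beside 0.00084 for all peaks, and without Itga4 it fell to -0.07. With the mouse as a block, which takes account of the pairing of both populations within a brain, 7 and 3 integrin peaks passed in place of 13 and 5. Leaving out the CD45.2 library of mouse 5 left 6 and 2, and leaving out that of mouse 6 left 8 and 3.

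**Figure D2:**
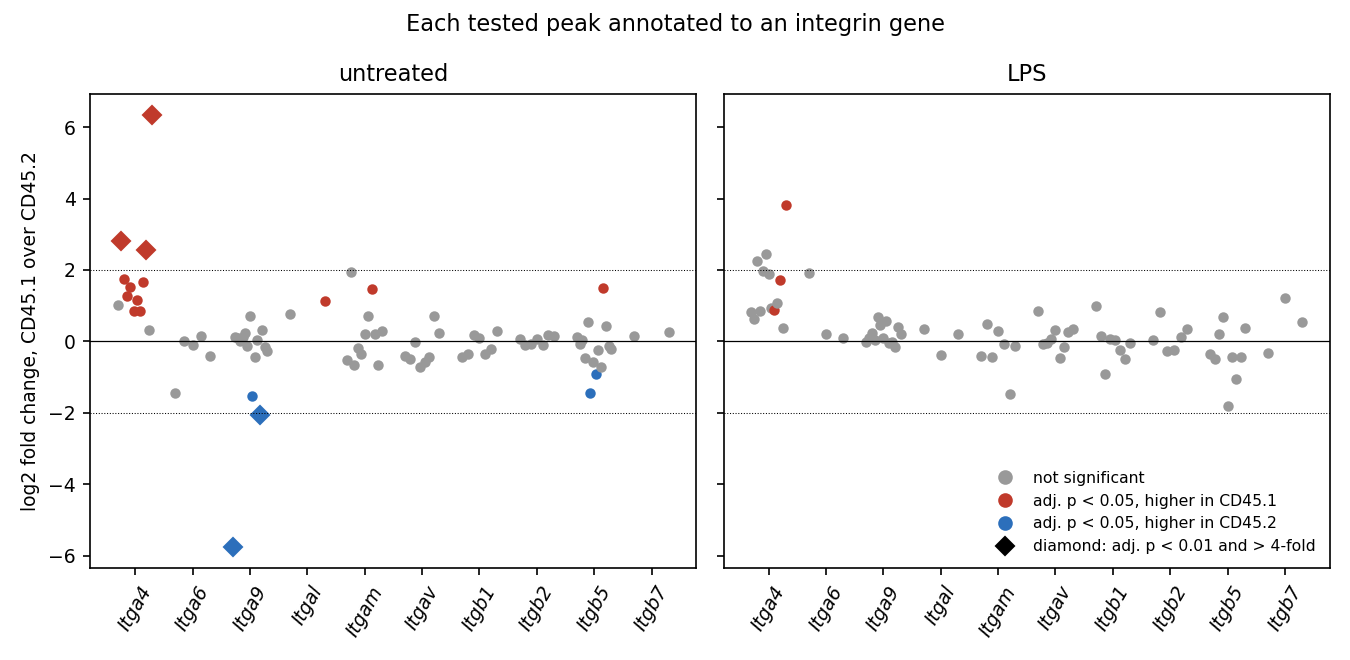
Log2 fold change of CD45.1 over CD45.2 (vertical axis) of each tested integrin peak, by gene, in untreated mice (left) and after LPS (right). Red and blue points passed an adjusted p of 0.05, diamonds also differed more than 4-fold, and dotted lines mark 4-fold differences. The 12 untreated and 13 LPS peaks of Itga4 all lie above 0, and the peaks of the other genes lie on both sides of it.

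The strongest Itga4 peak by test stood in the second of 27 introns, 1733 bp downstream of the start site. It held 117, 127 and 98.0 normalised tags in CD45.1 and 22.9, 13.9 and 22.7 in CD45.2 of untreated mice. The graft libraries were all above the host libraries, with means of 114 ± 14.6 and 19.9 ± 5.14 (SD, n = 3), and the difference was 5.89-fold (log2 fold change 2.56, SE 0.28, adjusted p = 2.24e-16). HOMER had called the peak in 3 CD45.1 libraries and in 1 CD45.2 library. After LPS the corresponding peak held 48.5, 69.1 and 60.4 in CD45.1 and 21.02, 13.96 and 19.6 in CD45.2. The groups were again apart, by 3.28-fold (log2 fold change 1.71, SE 0.34, adjusted p = 4.69e-05).

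A smaller Itga4 peak in intron 24 of 27, 66385 bp downstream of the start, was seen in graft-derived cells and hardly in host cells. It passed the filter on low counts only through CD45.1, where it was high, in both treatments. In untreated mice it held 12.1, 21.9 and 10.9 normalised tags in CD45.1, and no tag was counted in any of the 3 CD45.2 libraries. Set against a floor of 3 tags per library, the signal in CD45.1 was at least 4.64-fold higher (adjusted p = 4.69e-05). After LPS it held 11.3, 7.83 and 6.60 in CD45.1 and 1.75, 0 and 0.594 in CD45.2, which rests on 26 and 2 tags in all. The ratio of these counts was 14.4 with a 95% interval of 3.61 to 125.5 for counting error alone. Its adjusted p of 0.0299 rose to 0.131 with the mouse as a block, and to between 0.0658 and 0.248 without any 1 library other than CD45.1 of mouse 1.

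The third called Itga4 peak lay in intergenic sequence 147520 bp upstream and held 13.1, 14.6 and 14.2 normalised tags in CD45.1 of untreated mice. The CD45.2 libraries had 3.28, 0 and 3.25, below all graft libraries (log2 fold change 2.82, SE 0.82, adjusted p = 0.00658). It rests on 42.5 and 6 tags and passed the filter on low counts only through CD45.1, where it was high. With the mouse as a block the adjusted p was 0.0331, and with a correction for GC content added to the block it was 0.279. The adjusted p was above 0.01 without any 1 library other than CD45.2 of mouse 4, from 0.0247 to 0.142, and the log2 fold change was 2.09 and 3.57 without the CD45.2 library of mouse 5 or 6. After LPS the peak was below the filter on low counts.

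At the promoter of Itga4, 546 bp upstream of the start, the normalised tags in untreated mice were 160, 153 and 166 in CD45.1 and 95.0, 66.6 and 61.7 in CD45.2. The groups did not overlap, with means of 160 ± 6.13 and 74.4 ± 18.02 (SD, n = 3), and the promoter was 2.21-fold higher in CD45.1 (log2 fold change 1.1445, SE 0.20, adjusted p = 3.60e-07). After LPS the promoter peak, 504 bp upstream, held 67.9, 110 and 99.1 in CD45.1 and 42.0, 47.1 and 57.0 in CD45.2. The lowest graft library lay above the highest host library (log2 fold change 0.88, SE 0.26, adjusted p = 0.0187), and with the mouse as a block the adjusted p was 0.0962. Without the CD45.1 library of mouse 2 or 3 or the CD45.2 library of mouse 1 or 2 the adjusted p lay between 0.0762 and 0.230.

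The remaining Itga4 peaks lay on the same side. In untreated mice the peak in the first exon, 142 bp downstream of the start, was 3.17-fold higher in CD45.1 (log2 fold change 1.66, adjusted p = 4.11e-05), and the peaks 123045 and 74493 bp upstream were 3.34-fold and 2.42-fold higher (log2 fold changes 1.74 and 1.27). With GC correction and block the log2 fold change at 123045 bp was 0.84 (adjusted p = 0.0749). Peaks 49031, 27282 and 107 bp upstream had log2 fold changes of 1.52, 0.86 and 0.85, and these 3 passed without the block (adjusted p = 0.00715, 0.0123 and 0.0443) and not with it (0.0509, 0.0523 and 0.172). The first of these was lost without the CD45.1 library of mouse 5 or the CD45.2 library of mouse 5 or 6 (adjusted p = 0.0623 to 0.0870), the second without either library of mouse 5 (0.139 and 0.154), and the peak at 107 bp without any library but CD45.1 of mouse 5 (0.0730 to 0.292). The peaks 168058 bp upstream and 10404 bp downstream did not pass (log2 fold changes 1.03 and 0.32, adjusted p = 0.0936 and 0.719). In all, 12 of 12 peaks had a positive log2 fold change, where 29645 of all 59170 tested peaks had one. For 11 the groups did not overlap, where 17.7% of all peaks were apart in this direction. After LPS all 13 tested Itga4 peaks were positive (24301 of all 49180 peaks), 10 were without overlap (14.1% of all peaks), and 3 passed. Peaks of 1 gene share their libraries and are not independent.

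**Figure D3:**
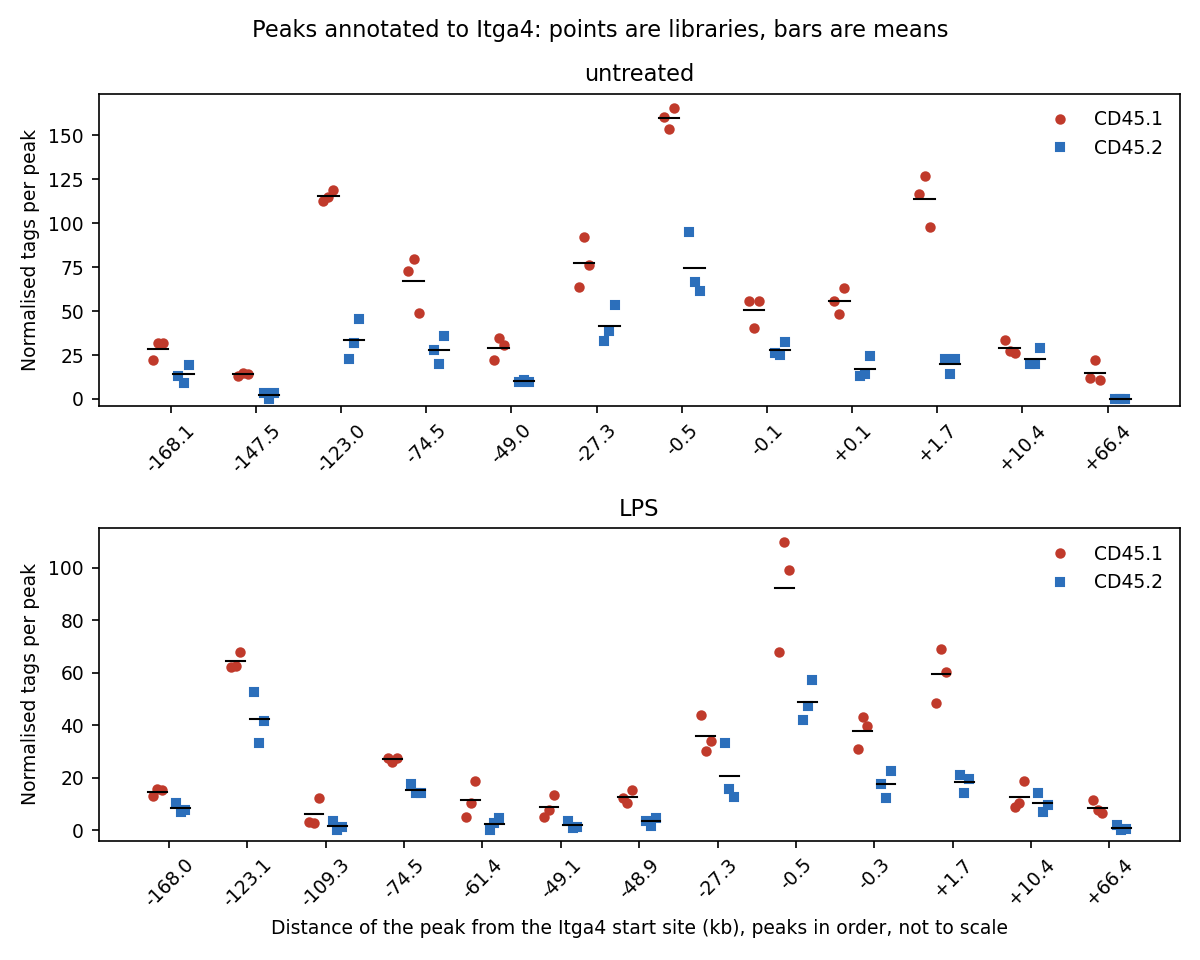
Normalised tags per library in each tested Itga4 peak, in order along the gene, with the distance from the start site in kb under each (negative is upstream). The red CD45.1 points lie above the blue CD45.2 points at most peaks in both panels, and the blue points of the untreated peak farthest downstream are at 0.

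Itgal passed at the level of the gene in untreated mice. The sum over its 2 peaks was 67.5, 52.8 and 73.9 normalised tags in CD45.1 and 37.3, 25.5 and 39.9 in CD45.2. The groups did not overlap (1.91-fold, log2 fold change 0.93, SE 0.29, adjusted p = 0.0112), but with the mouse as a block the adjusted p was 0.0750. It was 0.0902 and 0.0816 without the CD45.1 library of mouse 4 or 6 and 0.199 without the CD45.2 library of mouse 5. Its promoter peak, 2 bp from the start site, held 42.9, 31.0 and 46.8 in CD45.1 and 19.7, 16.3 and 19.5 in CD45.2 (log2 fold change 1.13, SE 0.36, adjusted p = 0.0155, with the block 0.0939). The call at the promoter was lost as well without the CD45.1 library of mouse 4 or 6 or the CD45.2 library of mouse 5 or 6 (adjusted p = 0.0860 to 0.162). After LPS the sums were 59.8, 35.8 and 44.2 in CD45.1 and 28.2, 38.5 and 52.4 in CD45.2. These overlapped (log2 fold change 0.20, 95% interval -0.43 to 0.82).

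Itgam and Itgb2, which form Mac-1, did not pass when summed in either treatment, and the product of Itgam was part of the sort gate. Itgam had 352, 361 and 410 normalised tags in CD45.1 and 308, 412 and 378 in host cells before LPS (log2 fold change 0.02, 95% interval -0.24 to 0.27). Itgb2 had 480, 521 and 508 in CD45.1 and 428, 518 and 501 in CD45.2 (log2 fold change 0.05, 95% interval -0.17 to 0.27). In each gene the values of both populations overlapped. After LPS the log2 fold changes were -0.04 (95% interval -0.40 to 0.32) for Itgam and 0.20 (-0.11 to 0.51) for Itgb2, whose 3 CD45.1 libraries (306, 322 and 319) lay above its 3 CD45.2 libraries (231, 299.7 and 286).

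Within Itgam a single peak passed, 903 bp downstream of the start in the first of 29 introns. It held 31.7, 21.9 and 41.4 normalised tags in CD45.1 and 14.7, 12.4 and 8.12 in CD45.2 of untreated mice, without overlap (2.77-fold, log2 fold change 1.47, SE 0.44, adjusted p = 0.00891). With the block the adjusted p was 0.0734, and with GC correction and block the log2 fold change was 0.47 (adjusted p = 0.816). It also rose above 0.05 without the CD45.1 library of mouse 4 or 6 or the CD45.2 library of mouse 5 or 6 (0.0660 to 0.140). The Itgam promoter held 52.2, 52.9 and 45.7 in CD45.1 and 26.2, 34.1 and 30.8 in CD45.2, which did not overlap but did not pass (log2 fold change 0.71, adjusted p = 0.0969). The Itgb2 promoter, 36 bp upstream, had means of 75.4 ± 2.77 and 78.8 ± 12.3 (log2 fold change -0.09, adjusted p = 0.894).

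Itgb1 and Itgb7, the beta partners of Itga4, did not share its difference. Itgb1 summed to 161, 173 and 196 normalised tags in CD45.1 and 188, 211 and 200.3 in CD45.2 without LPS, which overlapped (log2 fold change -0.18, 95% interval -0.48 to 0.11). Itgb7, with 2 peaks, summed to 76.9, 86.2 and 57.0 in CD45.1 and 58.3, 70.8 and 66.5 in CD45.2 (log2 fold change 0.16, 95% interval -0.31 to 0.63). After LPS the log2 fold changes were -0.14 (95% interval -0.56 to 0.28) for Itgb1 and 0.23 (-0.49 to 0.95) for Itgb7. The difference between Itga4 and its partners was not tested. The promoter peak of Itgb1, 92 bp downstream of the start, held 39.2, 42.0 and 43.6 in CD45.1 and 42.6, 34.1 and 42.2 in CD45.2, and Itgb7 had no promoter peak.

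Itga9, another alpha partner of Itgb1, had 15 peaks in untreated mice and opposite values among them. The sums were 461, 461 and 492 normalised tags in CD45.1 and 528, 579 and 476 in CD45.2, which overlapped (log2 fold change -0.16, 95% interval -0.38 to 0.05). After LPS the log2 fold change was 0.18 (95% interval -0.16 to 0.51). Its promoter, 80 bp upstream, had a log2 fold change of 0.11 (adjusted p = 0.894). Distances at Itga9 are to the nearer of 2 start sites, the second of which lies within the gene.

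Both called peaks higher in host cells were listed under Itga9. The one 49534 bp upstream lies in exon 15 of 24 of the neighbouring gene Golga4, which encodes a Golgi protein. It held 0, 0 and 1.09 normalised tags in CD45.1 and 14.7, 23.2 and 17.9 in CD45.2, from 1.5 and 61.5 tags (adjusted p = 1.73e-04). With these sums rounded to whole tags and scaled by size factors, the ratio was 30.5 (95% interval 8.10 to 257.6 for counting error). The host libraries were all above the graft libraries, and the peak passed the filter on low counts only through CD45.2. After LPS a peak at this place had 0 tags in the CD45.1 libraries and 15 tags in the CD45.2 libraries and was below the filter.

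The other one, in intron 11 of 27 and 36723 bp upstream of the second start site, held 5.60, 7.30 and 8.71 normalised tags in CD45.1 and 45.9, 27.1 and 19.5 in CD45.2. The groups were apart, by 4.17-fold (log2 fold change -2.06, SE 0.50, adjusted p = 7.18e-04). The peak overlaps a repeat of the large ribosomal RNA subunit, and of the 36 tested peaks with that repeat 35 were lower in CD45.1 and 32 passed (median log2 fold change -2.10). After LPS all 23 were lower in CD45.1 and 20 passed (median -2.43). With the block the adjusted p of the Itga9 peak was 0.0109, so that it was no longer called, and it was 0.0171, 0.0149 and 0.0104 without the CD45.1 library of mouse 4 or the CD45.2 library of mouse 4 or 5. One more Itga9 peak, 45342 bp upstream of the second start, passed at 0.0285 (log2 fold change -1.54) but not with the block (0.123), nor without any 1 library other than CD45.1 of mouse 6 (0.0736 to 0.179).

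Itgav and Itgb5, whose products form a vitronectin receptor, did not pass when summed in either treatment. Itgav summed to 386, 395 and 297 normalised tags in CD45.1 and 463, 457 and 392 in CD45.2 of untreated mice. The highest CD45.1 library lay above the lowest CD45.2 library (log2 fold change -0.28, 95% interval -0.53 to -0.02, adjusted p = 0.159). Itgb5 summed to 472, 472 and 441 in CD45.1 and 442, 586 and 495 in CD45.2 (log2 fold change -0.15, 95% interval -0.38 to 0.09). After LPS the log2 fold changes were 0.02 (95% interval -0.33 to 0.37) and 0.01 (-0.34 to 0.36). The Itgav promoter, 17 bp downstream of the start, had means of 140.5 ± 5.96 and 144 ± 23.1.

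Single peaks of Itgb5 went both ways in untreated mice. In its first intron, 7930 bp downstream of the start, the normalised tags were 20.5, 16.4 and 9.80 in CD45.1 and 42.6, 48.0 and 37.3 in CD45.2. This peak was 2.71-fold lower in graft-derived cells (log2 fold change -1.44, SE 0.37, adjusted p = 0.00169, with the block 0.0144), and its adjusted p was 0.0597 without the CD45.2 library of mouse 5. A peak 30523 bp downstream was 1.88-fold lower in CD45.1 (adjusted p = 0.0120, with the block 0.0719), and one 56176 bp downstream was 2.79-fold higher (adjusted p = 0.0248, with the block 0.118). The first was lost without either library of mouse 5 or of mouse 6 (0.0564 to 0.156), and the second without any 1 library other than CD45.2 of mouse 4 (0.0660 to 0.129). After LPS the peak 7903 bp downstream had a log2 fold change of -1.81 (adjusted p = 0.0749).

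Itga6, the laminin receptor subunit, summed to 229, 219 and 207 normalised tags in CD45.1 and 204, 236 and 223 in CD45.2 of untreated mice. The values overlapped (log2 fold change -0.03, 95% interval -0.30 to 0.25). After LPS they were 80.2, 66.2 and 76.8 in CD45.1 and 65.2, 61.2 and 55.9 in CD45.2, which did not overlap but did not pass either (log2 fold change 0.31, adjusted p = 0.587). The Itga6 promoter, 29 bp upstream, had means of 66.0 ± 11.2 and 66.3 ± 5.32 in untreated mice.

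After LPS no integrin peak was called in either direction, where 1.78% of all peaks were called higher in CD45.1 and 1.19% higher in CD45.2. Without the fold limit 3 of the 74 tested integrin peaks passed in the direction of CD45.1 (4.08% of all peaks) and 0 in the direction of CD45.2 (2.38%), all 3 at Itga4. At an unadjusted p below 0.05 DESeq2 gave 14 and 2 integrin peaks, beside 4431 and 3191 of all 49180. The quasi-likelihood test of edgeR called 1 and 0 (1239 and 880 of all peaks), with 11 and 1 passing an adjusted p of 0.05 (3617 and 2297 of all peaks). With the mouse as a block 1 integrin peak passed, the Itga4 peak 1696 bp downstream of the start (adjusted p = 0.00342), and 1 passed as well without the CD45.1 library of mouse 2 or 3 or the CD45.2 library of mouse 2. The groups did not overlap for 16 integrin peaks higher in CD45.1, where 14.1% of all peaks were so, and for 3 higher in CD45.2, where 6397 of all 49180 peaks were. The median log2 fold change of the integrin peaks was 0.18 and that of all peaks -0.0077, and without Itga4 the integrin median was 0.06. Scaled to total tags, all peaks had a median of 0.14 and the integrin peaks one of 0.30.

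To set the treatments side by side, peaks of both tables that overlapped each other by at least 50% were paired, which gave 54 integrin pairs among 39235. Of the 51 integrin pairs tested in both tables, 24 were higher in CD45.1 in both and 15 lower in both, while 12 differed in sign. Across these peaks, which share their libraries and are not independent, the log2 fold changes of the treatments had a Pearson correlation of 0.86, and of 0.62 over the 43 pairs without Itga4. The same counts and correlation over all pairs are not given here. Whether the difference between populations changed with treatment was tested as an interaction in 1 model over 12 libraries. With DESeq2, 0 integrin pairs passed in either direction, where 0.0178% and 0.227% of all pairs did. At an unadjusted p below 0.05 there were 3 of 54 integrin pairs beside 2090 of all 39235, which is about the same rate, and edgeR found 0 integrin pairs that passed. For 15 integrin pairs DESeq2 gave no adjusted p. The interaction was -0.45 for the summed Itga4 pairs (95% interval -0.86 to -0.03, adjusted p = 0.725) and -0.91 for Itgal (-1.76 to -0.06, adjusted p = 0.725). No integrin gene passed, where 0.0409% and 0.15% of all genes did.

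**Figure D4:**
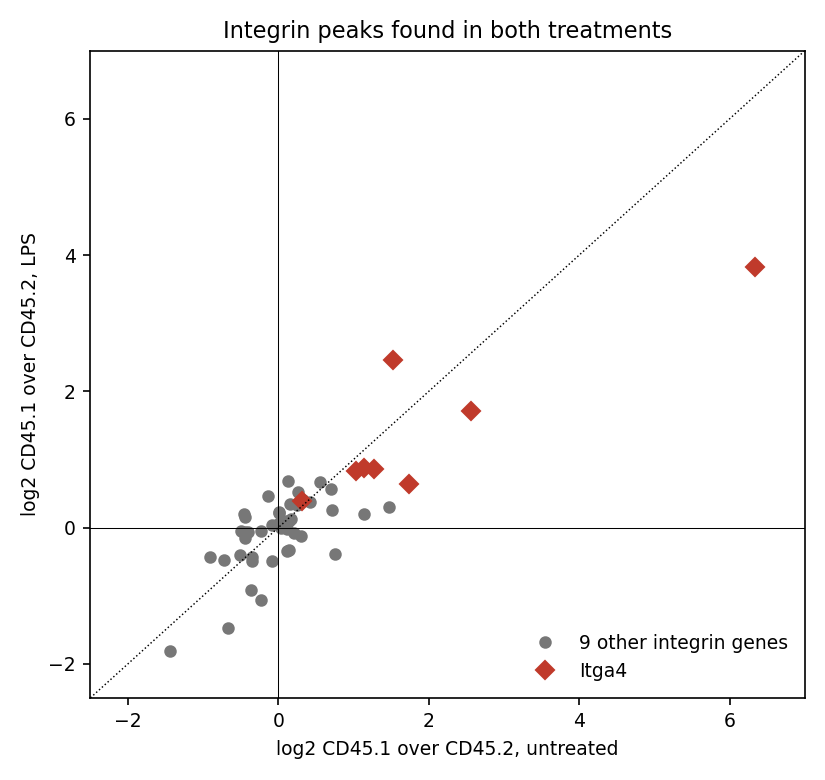
Log2 fold change of CD45.1 over CD45.2 after LPS (vertical axis) against that in untreated mice (horizontal axis) for integrin peaks tested in both. The dotted line marks equal values, and the red Itga4 diamonds lie in the upper right, all above 0 on both axes.

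LPS against untreated was then compared within each population, with the treatment and the table going together. In CD45.1, 4 integrin pairs were more than 2-fold higher after LPS and passed (6.78% of all pairs) and 1 was lower (4.93%). In CD45.2, 7 were higher (7.69% of all pairs) and 2 lower (3.69%). The values in this comparison are scaled over all 12 libraries and differ for that reason from those given for each table. The peaks called after LPS had a larger median width over the integrin pairs, 184.5 bp beside 143 bp in untreated mice. Every integrin pair that passed as higher had a wider peak after LPS, and every pair that passed as lower a narrower one. Most integrin pairs that did not pass had a wider peak after LPS as well. The Itgav pair 5158 bp downstream, for instance, went from 117 to 228 bp, and the Itgb1 pair 30755 bp upstream from 277 to 230 bp. The part of the width in these differences was not tested.

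The 4 pairs that were higher in both populations belonged to Itga9 and Itgav. The Itga9 pair 49033 bp upstream of the second start rose in CD45.1 from 16.2, 14.7 and 20.1 normalised tags to 49.2, 77.7 and 67.1, and in CD45.2 from 15.2, 12.1 and 5.49 to 20.2, 37.9 and 63.0. Treated libraries lay above untreated ones in both (log2 fold changes 1.92 and 2.05, SE 0.35 and 0.38, adjusted p = 1.50e-06 and 3.06e-06). The pair at 41798 bp rose from 31.1, 23.9 and 41.6 to 80.9, 101 and 137 in CD45.1 and from 46.8, 43.2 and 43.4 to 90.8, 107 and 124 in CD45.2 (log2 fold changes 1.73 and 1.31). In Itgav the pair 5158 bp downstream of the start rose in CD45.1 from 27.4, 33.1 and 16.5 to 56.3, 71.9 and 69.9 and in CD45.2 from 46.8, 42.2 and 41.8 to 83.2, 116 and 70.9 (log2 fold changes 1.34 and 1.06). The Itgav pair at 20099 bp rose with log2 fold changes of 1.04 and 1.44, and its untreated peak was 144 bp wide while its LPS peak was 288 bp wide. The call of this last pair in CD45.1 was lost without the CD45.1 LPS library of mouse 1 or 3 or the CD45.1 untreated library of mouse 4 (log2 fold changes 0.95, 0.85 and 1.00), and that of the Itgav pair at 5158 bp in CD45.2 without the CD45.2 LPS library of mouse 2 (0.81).

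Other pairs passed in 1 population. At Itga4 the pair 123045 bp upstream rose in CD45.2 from 15.2, 21.6 and 30.8 normalised tags to 75.7, 48.0 and 61.3 (log2 fold change 1.36, SE 0.26, adjusted p = 4.88e-06) and stood at 75.3, 77.2 and 78.1 and at 90.2, 93.3 and 101 in CD45.1 (log2 fold change 0.30, adjusted p = 0.339). In host cells all treated libraries were thus above all untreated ones and reached the untreated level of graft cells in 1 library. The Itga4 pair 1733 bp downstream rose in CD45.2 from 15.2, 9.49 and 15.4 to 30.3, 20.2 and 28.9 (log2 fold change 1.00, adjusted p = 0.0195), at the 2-fold limit, and fell below it without any 1 of 8 libraries (CD45.1 untreated of mice 4, 5 and 6, CD45.1 LPS of mice 1 and 3, CD45.2 untreated of mouse 5 and CD45.2 LPS of mice 1 and 3, with log2 fold changes of 0.77 to 1.00). The Itgam pair 903 bp downstream rose in CD45.2 from 9.79, 8.43 and 5.49 to 25.2, 27.8 and 26.3 (log2 fold change 1.80, SE 0.40, adjusted p = 1.82e-04), while CD45.1 had 0.66 (adjusted p = 0.165). The interactions of these 3 pairs did not pass (log2 -1.05, -0.81 and -1.14, adjusted p = 0.211, 0.833 and 0.758), so the populations were not shown to respond differently.

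Lower after LPS were the Itga9 pairs 26320 and 36241 bp downstream of a start in CD45.2 (log2 fold changes -1.64 and -2.47, adjusted p = 0.00656 and 0.0117) and the Itgb1 pair 30755 bp upstream in CD45.1 (log2 fold change -1.37, adjusted p = 0.00359). The Itgb1 pair fell from 26.1, 35.5 and 41.6 normalised tags to 16.4, 7.77 and 13.99 in CD45.1, and in CD45.2 its values were 43.5, 46.4 and 44.0 and then 30.3, 15.2 and 28.9 (log2 fold change -0.87, adjusted p = 0.0429), which is below the fold limit. The Itga9 pair at 36241 bp held 10.9, 17.4 and 14.8 in untreated CD45.2 and 0, 7.58 and 0 after LPS, so its fold rests on few tags. It did not pass without the CD45.2 LPS library of mouse 3 (log2 fold change -1.62). Without that of mouse 2, which had the most tags after LPS, the log2 fold change was -5.74. Before rounding, that library had 5.5 tags and those of mice 1 and 3 had 0.5 each. The pair at 26320 bp did not pass without the CD45.2 LPS library of mouse 2 (-1.39) or the CD45.2 untreated library of mouse 5 (-1.27).

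**Figure D5:**
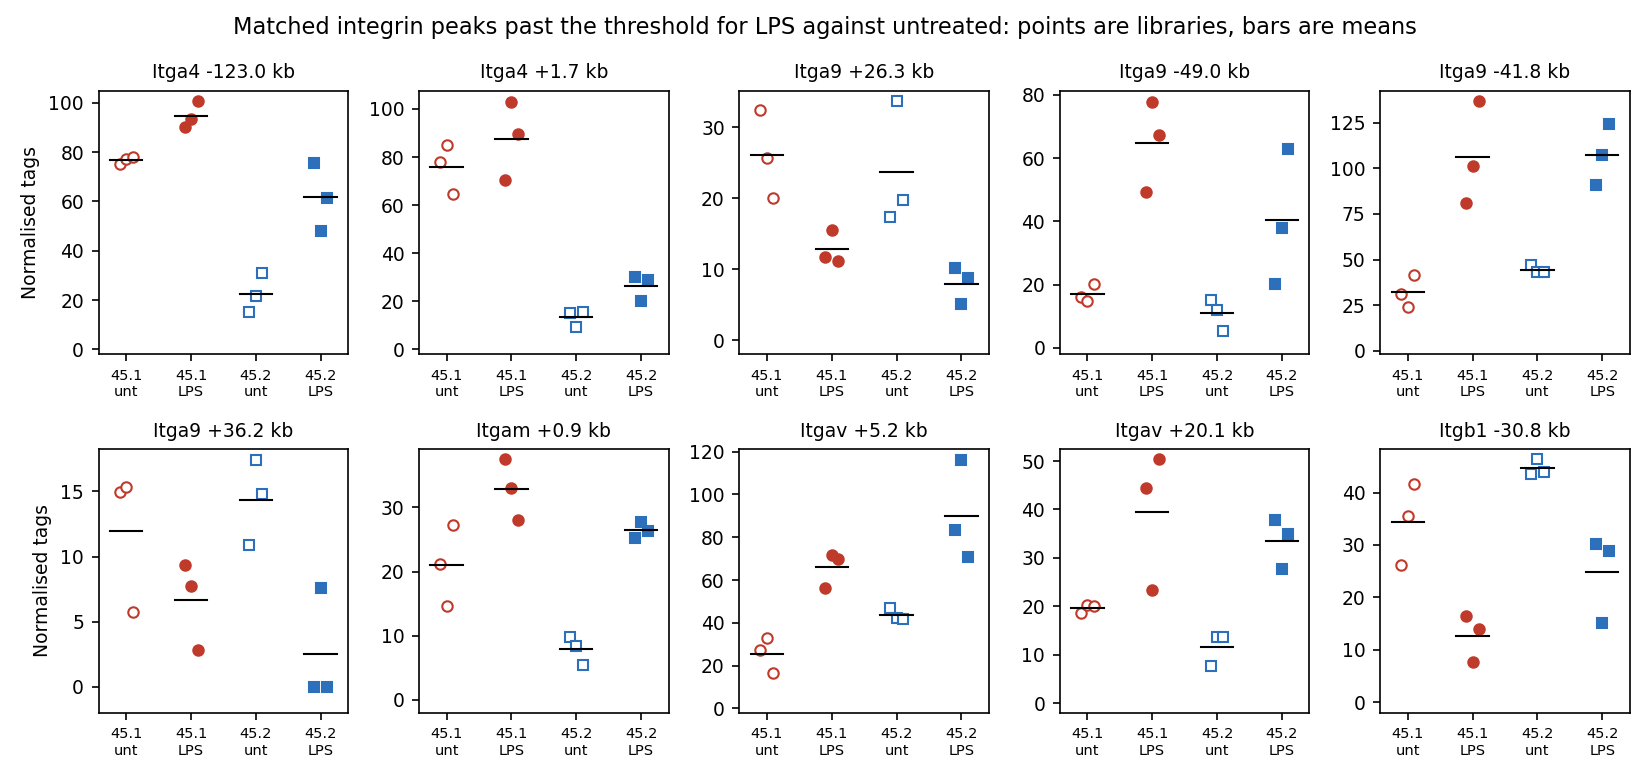
Normalised tags (vertical axis, scaled over all 12 libraries) of the 10 integrin pairs that passed LPS against untreated in at least 1 population, in CD45.1 (red circles) and CD45.2 (blue squares), open for untreated and filled for LPS, with bars at the means. Filled points lie above open ones in both populations for the Itga9 pairs 49033 and 41798 bp upstream and the Itgav pairs 5158 and 20099 bp downstream.

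Counts in the lists of related genes stand beside the shares of all genes that passed, which were 7.35% higher and 7.46% lower in CD45.1 of untreated mice and 4.08% and 2.98% after LPS. Among 16 other integrin subunits, 12 had tested peaks in untreated mice, and 3 of them were higher in CD45.1 and 0 lower. These were Itga1, a collagen receptor subunit (log2 fold change 2.00, adjusted p = 1.22e-09), Itgb8, which takes part in activating TGF-beta (0.90, adjusted p = 6.70e-06), and Itgb4, a laminin receptor subunit (1.02, adjusted p = 0.00344). After LPS 11 had tested peaks, and Itgb8 (1.111) and Itga1 (1.42) were higher. Of 18 tested genes that act in integrin activation, 1 was higher, Cyth1, a cytohesin (0.75), and 1 lower, Filip1l (-0.43), and after LPS 0 of 16 passed in DESeq2. The median log2 fold changes of these lists were 0.14 and 0.05 in untreated mice, beside -0.00096 for all genes.

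Of 26 tested genes of integrin signalling and the adhesion complex, 2 were higher in CD45.1 in untreated mice, the exchange factor Vav3 (log2 fold change 1.32, adjusted p = 5.77e-14) and the adaptor Nedd9 (0.50), and 5 were lower, Arhgef7 (-0.90), the actin cross-linker Actn1 (-0.95), the focal adhesion kinase gene Ptk2 (-0.69), Rsu1 (-0.43) and Tns1 (-0.38). After LPS Vav3 (0.81) was higher and none was lower by DESeq2. Of 27 tested ligands and partners, Ltbp1 (1.503), which holds latent TGF-beta, and Nrros (0.56), which presents it on myeloid cells, were higher in CD45.1, while 4 were lower: the junctional adhesion molecules Jam2 (-2.49) and Jam3 (-1.02), the tetraspanin Cd9 (-0.58) and Icam1 (-0.40), the main ligand of LFA-1. After LPS Spp1, the integrin ligand osteopontin (1.84), and Ltbp1 (0.95) were higher and Jam2 (-1.60) and Cd9 (-0.62) lower. The medians of these lists were -0.04 and -0.13 in untreated mice.

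Markers of other cells were measured beside these differences. Of 8 tested markers of border and marrow-derived macrophages, 6 were higher in CD45.1 of untreated mice, with summed levels of 1265 to 1315 normalised tags in CD45.1 and 475 to 541 in CD45.2, and 5 after LPS (823 to 909 and 369 to 427). Lyve1 had no tested peak. Of the microglia markers, Sall1 and Sall3 (log2 fold change -1.88 in untreated mice and -1.13 after LPS) were lower in CD45.1 in both treatments. Cx3cr1, Fcrls, Gpr34, Olfml3, P2ry12, Siglech, Slc2a5 and Tmem119 did not pass in either, with log2 fold changes of -0.27 to 0.22 in untreated mice and -0.24 to 0.53 after LPS. Among lymphocyte markers 5 had tested peaks, of which Ms4a1, Ncr1 and Cd3d were higher and Klrb1c lower, with sums of 920 to 981 in CD45.1 and 909 to 1207 in CD45.2, and Cd3e, Cd79a and Cd8a had no tested peak. Of 3 tested neutrophil markers S100a9 was lower in CD45.1 (sums of 43.1 to 50.7 and 82.7 to 97.2). After LPS Ms4a1 was higher among 5 tested lymphocyte markers (sums of 500.3 to 611 and 522 to 720), and none of 5 tested neutrophil markers passed in DESeq2 (33.1 to 82.6 and 37.0 to 103). Lymphocytes also carry Itga4 and Itgal, and the part of such cells in these results was not tested. Markers of neurons were lower in CD45.1, 3 of 4 tested, with sums of 80.2 to 89.9 and 219 to 245, and Syt1 was near 0 there (mean 0.312 beside 47.8 in CD45.2). After LPS 2 of 5 were lower (30.5 to 36.0 and 81.3 to 118). In untreated mice 2 of 4 astrocyte, 1 of 4 oligodendrocyte and 1 of 4 endothelial markers were lower as well. Their part in the peaks that were higher in CD45.2 was not tested.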

How the data were processed

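ATAC-seq was performed by the authors on CD45.1 and CD45.2 brain macrophages of 3 untreated and 3 LPS-treated chimeras (12 libraries). The submitters' processing notes name bcl2fastq 2.17.1.14, Bowtie2, Picard 1.108, HOMER and the build mm9. Per the file headers, HOMER called peaks in each library, and whether tags were shifted for the transposase is not given in the sources used here. The authors merged the peaks of each treatment and annotated them by nearest start site. The deposited values of these merged tables are estimated counts, tags per peak that need not be whole (49.1% and 47.7% of values were not), not normalised, and they were rounded. The deposited peak lists of single libraries hold a HOMER score and were used only for which libraries had a peak. The methods of the study describe a filter on irreproducible peaks, and whether it was applied to these tables is not given there.

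All peaks in which some library exceeded 10 tags were tested with DESeq2 1.42.0 (R 4.3.3), CD45.1 against CD45.2. These were 59170 peaks in the untreated and 49180 in the LPS table, with Benjamini-Hochberg adjustment over all tested peaks. The thresholds were an adjusted p under 0.01 and over 4-fold, and also an adjusted p of 0.05. For its peaks the study names a p-value under 0.01 and over 4-fold, without saying whether that p was adjusted. Counts were summed per gene, and peaks of both tables with a reciprocal overlap of 50% were paired for an interaction model. The 95% intervals are from the Wald test. Groups came from the sample titles, and every column of values belonged to a sample (0 without one). No 2 libraries of a table held identical values. The mice are separate animals, and mice with one number gave both populations per the design text. Correlations of the deviations within a mouse were 0.14, 0.059 and 0.081 in untreated mice and -0.20, 0.067 and 0.075 after LPS. The fits were tested on simulated data, where most changes of 2-fold did not pass an adjusted p of 0.05.

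The integrin genes and all gene lists were chosen with earlier results of these data known. All 10 genes are named, and of their peaks those that were called, the promoter peak nearest the start site (or the strongest peak), pairs with an interaction, and up to 6 pairs per population and direction that passed LPS against untreated. Other peaks at an adjusted p under 0.05 were added after their values were seen. Listed genes are named at an adjusted p under 0.05, up to 6 per list, and some listed genes are not reported here. Alternatives were edgeR 4.0.16, TMM factors, total tags, other filters, the mouse as a block without and with a GC correction, other overlaps, other sets of peaks and leaving out each library.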

Additional observations from a re-analysis of the deposited data

How the results depend on the processing

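The Itga4 sums kept their direction and passed in every alternative that was run. Of the counts of integrin peaks in untreated mice, the 3 called higher in CD45.1 became 1 with a mean count of at least 20, and the 13 at an adjusted p of 0.05 became 7 with the mouse as a block and 5 with block and GC correction. The 2 genes higher in CD45.1 became 1 with total tags, with the block, with block and GC correction and without promoter peaks. The 2 peaks called higher in CD45.2 became 1 with total tags or the block and 0 with a mean count of at least 20, and the 5 at 0.05 became 9 in edgeR, 3 with total tags, the block or block and GC correction, and 2 with a mean count of at least 20. After LPS, the 0 called higher in CD45.1 became 1 in edgeR, the 3 at 0.05 became 11 in edgeR, 5 with total tags and 1 with the block or block and GC correction, and the 0 higher in CD45.2 became 1 in edgeR. Of the pairs, 80% overlap left 0 of the 4 higher in CD45.1, 0 of the 7 higher in CD45.2 and 0 of the 2 lower in CD45.2, from 13 integrin pairs in all. The 1 lower in CD45.1 became 2 with any overlap and 4 in edgeR, and the 7 became 4 with total tags. Leaving out 1 library gave 2 to 4 called and 6 to 12 at 0.05 higher in CD45.1, 1 to 2 called and 2 to 5 at 0.05 higher in CD45.2 and 1 to 2 genes in untreated mice, 1 to 2 at 0.05 after LPS, and 3 to 4 and 6 to 7 pairs higher and 1 and 0 to 2 lower after LPS in CD45.1 and CD45.2. The sums that changed sign were all near 0: Itga6 in untreated mice at 0.0095 with block and GC correction and 0.0026 without promoter peaks, Itgam at -0.026 without promoter peaks, and after LPS Itgam at 0.094 and Itgb1 at 0.0098 with total tags, Itgav at -0.014 without promoter peaks, and Itgb5 at -0.0096 with a mean count of at least 20 and -0.079 within 50 kb. The Itga4 interaction was 0.12 at 80% overlap. Without 1 library the log2 fold changes ran from -0.073 to 0.025 for Itga6, -0.083 to 0.11 for Itgam and -0.022 to 0.11 for Itgb2 in untreated mice, and after LPS from -0.020 to 0.47 for Itgal, -0.11 to 0.021 for Itgam, -0.11 to 0.14 for Itgav and -0.034 to 0.044 for Itgb5. Total tags moved the median over all pairs of LPS against untreated in CD45.2 to -0.15. The cause of these changes was not tested, beyond that stricter filters and overlaps leave fewer peaks and the block fewer degrees of freedom. Peaks near 10 tags, mostly after LPS, limit what could be seen at this depth.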
